A study of Mus musculus with 68 samples.

Results

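The male accessory glands secrete the proteins of semen, and 9 of their genes were followed: Svs2, Svs3a, Svs4, Svs5, Svs6, Sva, Pate4, Pate9 and Pate14. These are 9 of the 19505 genes named on the arrays and have 1 probe set each. They were chosen by name, with earlier results of these data known. Their levels were read on 67 mouse arrays in 12 groups, all labelled as prostate tumours, including those of animals without a transgene. The genes fell into several patterns across single arrays. Svs3a, Svs6 and Sva were high together on the same 9 arrays and near the bottom of their ranges on most others, while Svs2, Svs5 and Pate4 were high on 48, 47 and 37 arrays. Pate9 was high on 63 of 67 arrays, and 3 of the 4 exceptions were the late OPN-null TRAMP group, where 1 to 5 of the 9 genes were lower by the test, according to the group they were set against. In those comparisons 4.65% to 13.7% of all probe sets were called lower, and a count of 1 or 2 of 9 is near that share. Here an array is called high for a gene when it lies above the midpoint of that gene's lowest and highest log2 level, which is a description and no test.

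In TRAMP mice a rat probasin promoter, active in prostate epithelium, drives the T antigens of SV40, and prostate tumours develop. The TRAMP +/- animals were studied alone, with SPARC-/- (lacking the matricellular protein SPARC, "SPARC-null TRAMP") or with OPN-/- (lacking osteopontin, "OPN-null TRAMP"), and TRAMP -/- animals of the same 3 genotypes served beside them ("wild type", "SPARC-null" and "OPN-null"). The early transgenic animals were 7 TRAMP (age 16 weeks), 6 SPARC-null TRAMP (18 to 19) and 6 OPN-null TRAMP (16 to 17), and the late ones 7 TRAMP (24 to 25), 9 SPARC-null TRAMP (24 to 29) and 3 OPN-null TRAMP (24 to 27). Those without the transgene were 4 wild type (16), 7 SPARC-null (16 to 18) and 5 OPN-null (16 to 17) early, and 6 wild type (24), 4 SPARC-null (25 to 27) and 3 OPN-null (24) late. Each array is 1 animal, named here by its code (T, ST and OT with the transgene; B, S and O without). The labels name neither the prostate lobe nor a tumour type for any animal, and the wild-type samples carry no transgene. They do not say either whether the seminal vesicle was dissected away from the prostate. The series' design text speaks of adenocarcinoma and neuroendocrine tumours at other ages, and no label assigns an animal to either.

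The seminal vesicle lies against the prostate and empties into the same duct system. It secretes most of the fluid of mouse semen, under androgen control, and its SVS proteins form the copulatory plug after cross-linking by transglutaminase 4, the product of the prostate gene Tgm4. Svs2, Svs3a, Svs4, Svs5 and Svs6 encode such secretory proteins and lie in 1 cluster on chromosome 2, in the order Svs2, Svs3b, Svs4, Svs3a, Svs6, Svs5 in the RefSeq gene table. Sva, on chromosome 6, encodes seminal vesicle antigen, which binds sperm and lowers their motility. The PATE proteins are small secreted proteins of the Ly6 family, first named for expression in prostate and testis. Pate4 is listed under the synonym Svs7 and Pate14 under Sslp1, and Pate9, Pate8 and Pate14 are neighbours on chromosome 9.

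The promoters of 4 genes are shown because they form pairs of near-identical sequence. By the midpoint, Svs3a and Svs3b were high on 9 and 8 arrays, and Svs5 and Svs6 on 47 and 9. Each is the 250 bases before the RefSeq start on GRCm38.p6, 5′ to 3′ on the gene's strand. Capitals mark AGAACA or its reverse complement TGTTCT, the core letters bound by the androgen and other steroid receptors.
Svs5, chr2:164332515-164332764, plus strand: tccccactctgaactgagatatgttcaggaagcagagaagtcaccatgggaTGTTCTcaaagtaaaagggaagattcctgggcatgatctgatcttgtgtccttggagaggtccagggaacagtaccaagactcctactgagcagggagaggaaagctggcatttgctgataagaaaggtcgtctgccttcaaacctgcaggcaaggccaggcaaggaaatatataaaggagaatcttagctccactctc
Svs6, chr2:164316501-164316750, plus strand: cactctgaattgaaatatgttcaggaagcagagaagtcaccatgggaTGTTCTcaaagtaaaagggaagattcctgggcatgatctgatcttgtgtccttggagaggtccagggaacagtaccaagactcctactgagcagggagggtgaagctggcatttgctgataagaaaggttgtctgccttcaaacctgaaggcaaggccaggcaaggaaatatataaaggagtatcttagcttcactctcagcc
Svs3a, chr2:164289017-164289266, plus strand: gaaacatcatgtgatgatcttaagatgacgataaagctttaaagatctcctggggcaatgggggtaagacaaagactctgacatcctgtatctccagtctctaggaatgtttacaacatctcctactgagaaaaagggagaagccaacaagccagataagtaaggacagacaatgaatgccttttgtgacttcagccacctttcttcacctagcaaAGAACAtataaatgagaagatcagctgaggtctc
Svs3b, chr2:164256644-164256893, minus strand: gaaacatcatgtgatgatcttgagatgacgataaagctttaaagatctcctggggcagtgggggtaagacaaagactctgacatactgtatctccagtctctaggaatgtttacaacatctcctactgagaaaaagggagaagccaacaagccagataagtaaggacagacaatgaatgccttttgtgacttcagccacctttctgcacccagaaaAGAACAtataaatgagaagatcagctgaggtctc

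In a global alignment the Svs5 and Svs6 promoters were identical at 93.3% of 254 aligned columns, and the Svs3a and Svs3b promoters at 97.6% of 250. The 20 pairs of these promoters on different chromosomes reached 48.6% to 54.3% in the same alignment. RefSeq gave a promoter for 8 of the 9 members, all but Pate4. The letters AGAACA, on either strand, were found 1 time each in Svs3a, Svs5 and Svs6 and 2 times in Sva, and not in Svs2, Svs4, Pate9 or Pate14. Of 27025 promoters of the same length, 16.2% hold them. Counted from the start, their first base was at -199 in Svs5 and -203 in Svs6, whereas in Svs3a it was at -34 and they ran into the TATAAA at -28. TATAAA on either strand, the letters of a TATA box, was found in the Svs2, Svs3a, Svs4, Svs5 and Svs6 promoters and in 13% of all promoters. A match of letters is a description and does not show a bound site.

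All values below are the deposited log2 expression levels. A difference of 1 is a doubling, and levels are compared within a gene and never between genes. The separation of positive from negative control probe sets on an array (the area under the curve, AUC, where 0.5 is none) ran from 0.674 to 0.799, and 7 arrays were below 0.7. Array medians ran from 6.25 to 6.34, no 2 arrays held the same values, and the closest pair correlated at 0.987 over the probe sets. Without the transgene Sparc was lower in SPARC-null than in wild type at each age. It ran from 6.72 to 7.33 in early wild type against 5.84 to 6.59 in early SPARC-null. In the late groups it ran from 6.36 to 7.56 against 5.73 to 6.32, so the ranges were barely apart. Across ages the SPARC-null and wild-type ranges overlapped, so Sparc is a weak check of the label of a single animal. With the transgene the Sparc ranges overlapped (6.18 to 7.35 in early TRAMP and 6.28 to 6.96 in early SPARC-null TRAMP), so Sparc does not check those labels. Spp1, the gene of OPN, was not analysed here, so the OPN labels are unchecked. As each array is a bulk sample, fewer cells of a type and less RNA per cell cannot be told apart.

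All 9 genes were among the 100 probe sets of largest variance of the 22206 tested. As the genes were chosen with earlier results of these data known, their ranks are a description and no test. Svs5 ranked 1, Pate14 ranked 2, Pate4 ranked 3, Svs2 ranked 5, Sva ranked 7, Svs6 ranked 15, Svs3a ranked 19, Svs4 ranked 37 and Pate9 ranked 73. The spread was mostly among animals of 1 group. By the SD within groups, 8 of the 9 stayed among the first 100, led by Svs5 (2.93, rank 1) and Pate14 (2.57, rank 2). Pate9 was the exception, with an SD within groups of 0.86 and rank 194.

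**Figure D1:**
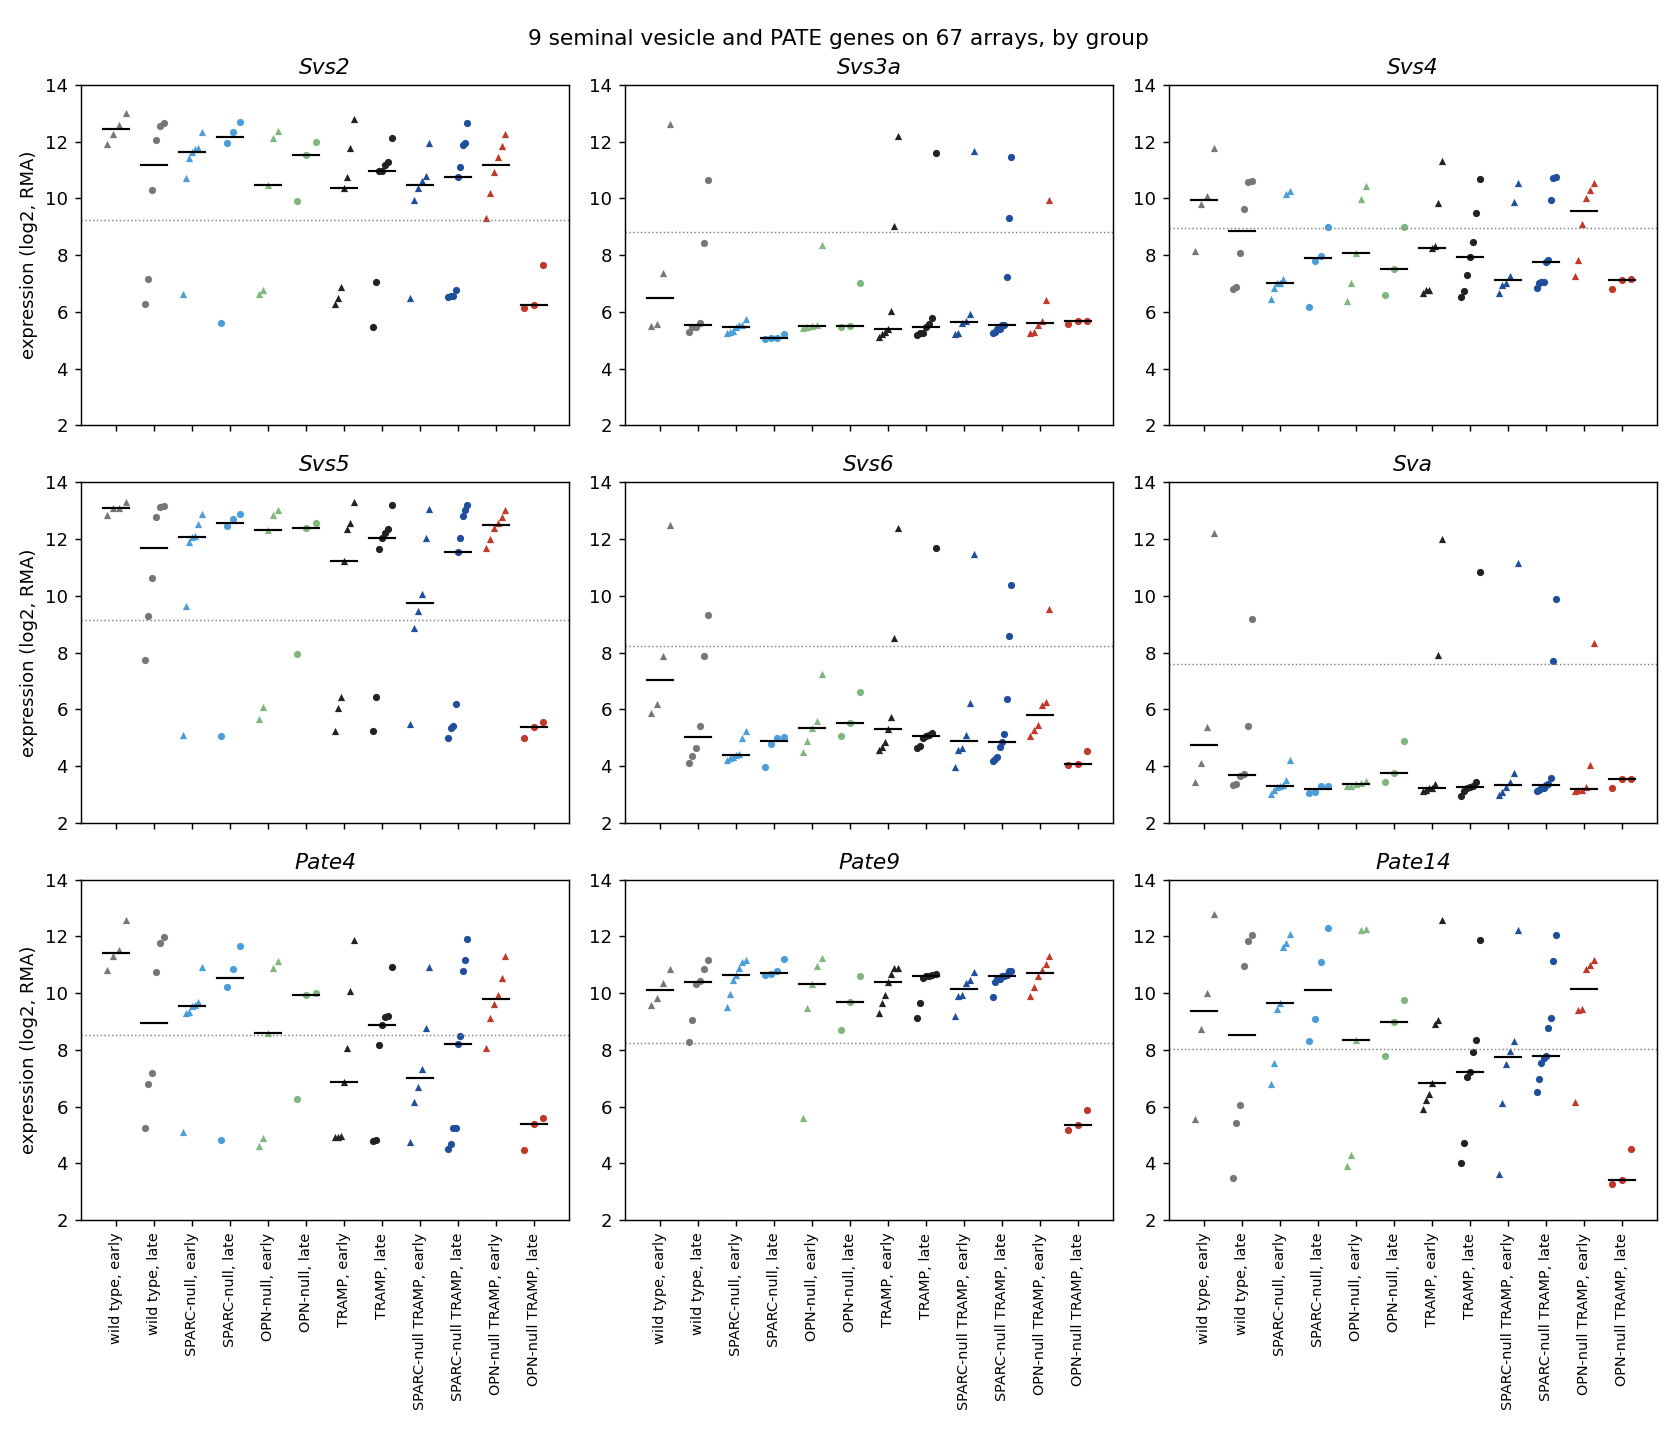
Log2 expression (RMA) of each of the 9 genes on 67 arrays, by group; triangles are early and circles late animals, black bars are group medians, and dotted lines are the midpoint of each gene's range. Svs3a, Svs6 and Sva sit above the midpoint on 9 arrays, Svs2, Svs5 and Pate4 are split inside most groups, and Pate9 is low on 4 arrays, 3 of them late OPN-null TRAMP.

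The first pattern was that of Svs3a, Svs6 and Sva. Each was high on 9 of 67 arrays, and these were the same 9: B11 and B3 (wild type), T13, T8 and T6 (TRAMP), ST24, ST15 and ST6 (SPARC-null TRAMP) and OT14 (early OPN-null TRAMP). None of the 19 SPARC-null and OPN-null arrays without the transgene was high. Over all arrays Sva ran from 2.95 through a median of 3.33 to 12.23, Svs3a from 5.03 through 5.52 to 12.64, and Svs6 from 3.97 through 5.04 to 12.51. On the 9 arrays Sva stood at 12.23 on B11, 9.17 on B3, 11.99 on T13, 7.90 on T8, 10.84 on T6, 11.17 on ST24, 9.89 on ST15, 7.69 on ST6 and 8.35 on OT14. The next array below them was at 5.40 (B5), so the midpoint of 7.59 fell in a gap just under ST6. The 9 arrays lay in 7 of the 12 groups and mostly 1 to a group, with 2 in early TRAMP and 2 in late SPARC-null TRAMP.

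Svs6 shows how this looked inside a group. In early wild type it was 5.87 on B8, 6.17 on B10, 7.88 on B13 and 12.51 on B11, so that 1 of 4 animals was high. In late wild type it ran from 4.12 through a median of 5.02 to 9.33 on B3. In early TRAMP it ran from 4.55 through 5.30 to 12.39 on T13, with T8 at 8.52. These high animals stood far above the medians of their own groups. In late TRAMP Svs6 ran from 4.65 through 5.07 to 11.67 on T6. In early SPARC-null TRAMP it ran from 3.98 through 4.88 to 11.48 on ST24. In late SPARC-null TRAMP it ran from 4.16 through 4.84 to 10.39 on ST15, with ST6 at 8.58. Without the transgene no SPARC-null array came near these levels. There Svs6 ran from 4.22 through 4.39 to 5.23 early, and was 3.97 on S5, 4.76 on S2, 5.0 on S6 and 5.03 on S3 late. In early OPN-null it was 4.50 on O10, 4.89 on O9, 5.33 on O1, 5.60 on O8 and 7.23 on O11. In late OPN-null it was 5.04 on O14, 5.50 on O7 and 6.60 on O2. The ranges of the OPN-null groups reached higher than those of the SPARC-null groups but stayed under the midpoint of 8.24. Early OPN-null TRAMP ran from 5.04 through 5.79 to 9.52 on OT14, and late OPN-null TRAMP was 4.03 on OT2, 4.06 on OT3 and 4.53 on OT6.

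The second pattern was that of Svs2, Svs5 and Pate4. Svs5 ran from 4.97 through a median of 12.05 to 13.30, and was high on 47 of 67 arrays. In early wild type it was 12.86 on B8, 13.08 on B13, 13.11 on B10 and 13.29 on B11, all high. In late wild type it ran from 7.73 through 11.69 to 13.18. All 4 early animals lay near the top of the gene's range, whereas the late ones were spread, with B4 at 7.73, B1 at 9.30 and B6 at 10.61 below the other 3. In early SPARC-null it ran from 5.10 through 12.08 to 12.89, and in late SPARC-null it was 5.05 on S5, 12.45 on S2, 12.70 on S3 and 12.89 on S6. In early OPN-null it was 5.67 on O9, 6.08 on O10, 12.31 on O8, 12.84 on O1 and 13.02 on O11. In late OPN-null it was 7.94 on O14, 12.39 on O7 and 12.56 on O2. So within each of these 4 knockout groups Svs5 was near its lowest level on 1 or 2 animals, or in the middle on O14, and near its highest on others.

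With the transgene Svs5 was split in the same way. It ran from 5.24 through 11.23 to 13.30 in early TRAMP and from 5.24 through 12.03 to 13.19 in late TRAMP. It ran from 5.49 through 9.76 to 13.07 in early SPARC-null TRAMP and from 4.97 through 11.56 to 13.21 in late SPARC-null TRAMP. Early OPN-null TRAMP had no low animal, with 11.69, 12.49 and 13.03 as lowest, median and highest. Late OPN-null TRAMP had no high one, with 4.98 on OT6, 5.37 on OT2 and 5.56 on OT3. By median, early wild type was first and late OPN-null TRAMP last. The 9 groups from late SPARC-null (12.57) to early TRAMP (11.23) overlapped their neighbours throughout, and their order is within the spread of animals.

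Svs2 and Pate4 followed Svs5 closely. Svs2 ran from 5.46 through 10.97 to its highest level on B11, and Pate4, the PATE protein also known as SVS7, from 4.47 through 9.13 to 12.57. Across the 67 arrays Spearman's rho was 0.96 between Svs2 and Pate4, 0.96 between Svs5 and Pate4 and 0.93 between Svs2 and Svs5, as a description over arrays that share a normalization. All 37 arrays high for Pate4 were high for both Svs2 and Svs5. In early wild type Pate4 was 10.83 on B8, 11.30 on B13, 11.52 on B10 and 12.57 on B11, and in late wild type it ran from 5.23 through 8.96 to 11.97. In late SPARC-null it was 4.83 on S5, 10.20 on S2, 10.85 on S3 and 11.67 on S6, and in late OPN-null it was 6.27 on O14 and 9.93 on O7, with O2 also high. The animals under the Svs5 midpoint in these groups, B4, S5 and O14, were under the Pate4 midpoint as well. In late wild type B1 and B6 were high for Svs5 but not for Pate4 (7.18 and 6.81), and B6 was not high for Svs2 (6.27). Pate4 ran from 4.92 through 6.87 to 11.89 in early TRAMP and from 4.80 through 8.89 to 10.93 in late TRAMP. It ran from 8.07 through 9.79 to 11.32 in early OPN-null TRAMP, and was 4.47 on OT2, 5.39 on OT6 and 5.59 on OT3 in late OPN-null TRAMP. In that late group Svs2 was 6.14 on OT2, 6.24 on OT6 and 7.65 on OT3, where the early group ran from 9.30 through 11.20 to 12.28. Early and late OPN-null TRAMP animals did not overlap for either gene. No array of Svs2 lay between 7.65 and 9.30, and its midpoint was 9.23. Array T8 stood out: Svs5 was 12.34 and Svs6 was 8.52 there, but Pate4 was 6.87, under its midpoint of 8.52.

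Svs4, a small basic secretory protein of the seminal vesicle, lay between the 2 patterns. It ran from 6.17 through 7.84 to 11.77 and was high on 25 arrays, which included all 9 arrays of the first pattern. All 25 were also high for Svs5. In early wild type Svs4 was 8.15 on B8, 9.82 on B10, 10.07 on B13 and 11.77 on B11, and 3 of these 4 were high. In early SPARC-null 2 of 7 animals were high, with a range from 6.44 through 7.02 to 10.27. Its rho was 0.86 with Svs5 and 0.72 with Svs6.

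The high arrays of Svs6, Svs4 and Svs5 were nested. All 9 arrays high for Svs6 were high for Svs4 and for Svs5, and 38 arrays were high for Svs5 and not for Svs6. The Spearman correlation between Svs5 and Svs6 was 0.71, and their promoters printed above differ at few bases. Svs3a and Svs3b, whose promoters are closer still, had a rho of 0.81. Svs3a and Svs3b are near-identical copies, and whether their probe sets tell them apart was not tested.

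**Figure D2:**
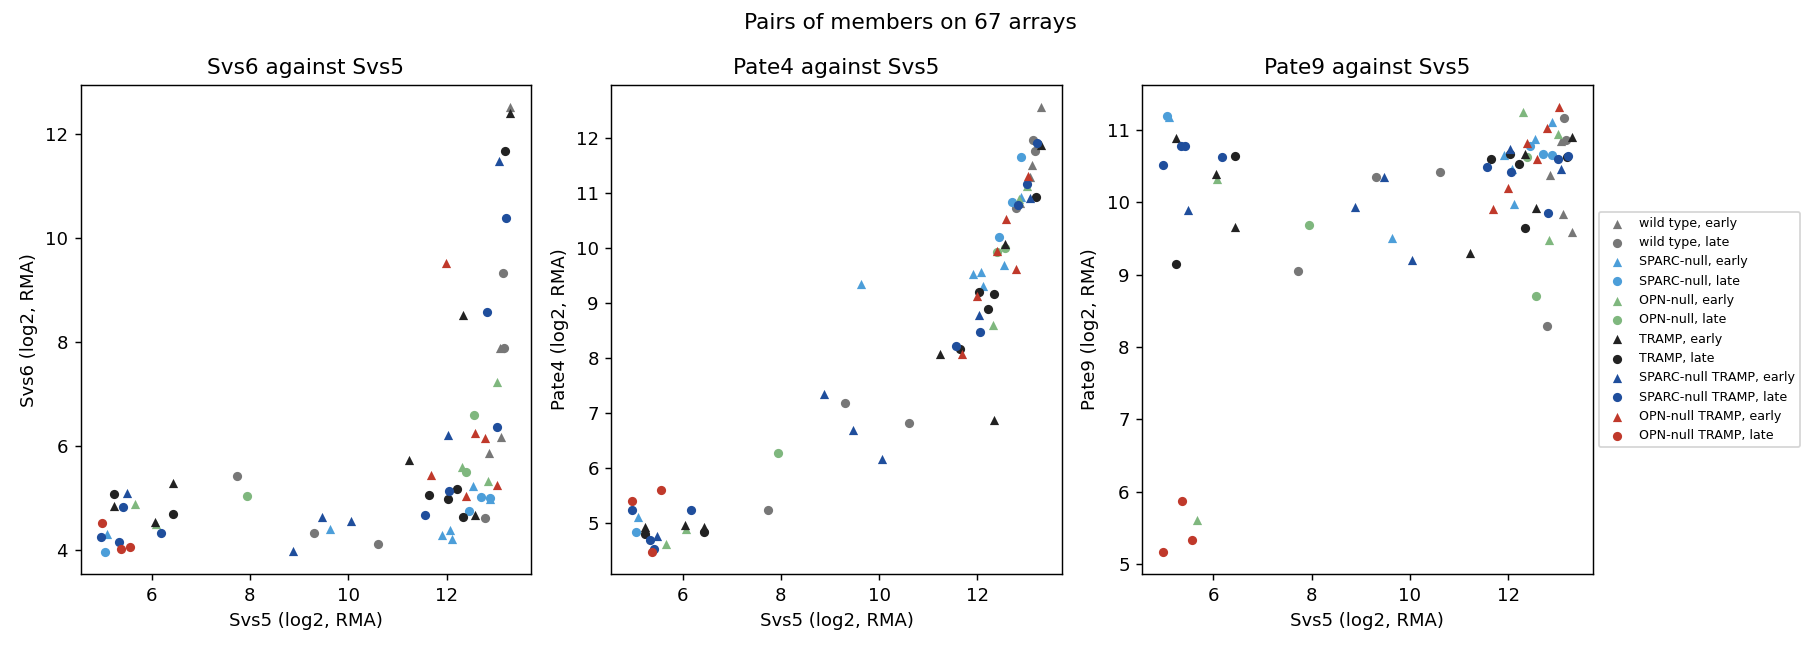
Svs6, Pate4 and Pate9 (y axes, log2 RMA) against Svs5 (x axes, log2 RMA) on 67 arrays, coloured by group. All 9 arrays high for Svs6 are high for Svs5, Pate4 follows Svs5 (rho 0.96), and Pate9 is high over the whole range of Svs5 except on the 3 late OPN-null TRAMP arrays and O9.

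Pate9 and Pate14 formed the third pattern. Pate9 ran from 5.17 through a median of 10.49 to 11.31, with no array between 5.88 and 8.29. In early wild type it was 9.59 on B11, 9.83 on B10, 10.37 on B8 and 10.85 on B13. In late wild type it ran from 8.29 through 10.38 to 11.16, and in early SPARC-null from 9.51 through 10.65 to 11.18. Array B11, the highest for 7 of the 9 genes, was the lowest of its group for Pate9. In late SPARC-null Pate9 was 10.65 on S6, 10.67 on S3, 10.77 on S2 and 11.19 on S5. In early OPN-null it was 5.61 on O9, 9.48 on O1, 10.32 on O10, 10.94 on O11 and 11.24 on O8. In late OPN-null it was 8.71 on O2, 9.69 on O14 and 10.62 on O7. Apart from O9 every array without the transgene was high. In early TRAMP it ran from 9.30 through 10.39 to 10.90 and in late TRAMP from 9.14 through 10.60 to 10.67. In early SPARC-null TRAMP it ran from 9.20 through 10.14 to 10.73 and in late SPARC-null TRAMP from 9.85 through 10.59 to 10.78. The ranges of these 4 groups overlapped. Early OPN-null TRAMP ran from 9.91 through 10.70 to 11.31, and late OPN-null TRAMP was 5.17 on OT6, 5.34 on OT3 and 5.88 on OT2. The last 3 values overlapped no other group except through O9.

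Pate14 was wider. It ran from 3.28 through 8.34 to 12.78 and was high on 36 arrays, all of them high for Pate9, and 11 arrays lay within 0.5 of its midpoint of 8.03, so that it had no clear gap. In early wild type it was 5.58 on B10, 8.73 on B8, 9.99 on B13 and 12.78 on B11. In late SPARC-null it was 8.31 on S3, 9.10 on S2, 11.09 on S6 and 12.28 on S5. These groups differed in whether any animal was low. Late wild type ran from 3.48 through 8.51 to 12.04, late TRAMP from 4.02 through 7.22 to 11.87 and late SPARC-null TRAMP from 6.51 through 7.77 to 12.05. In early SPARC-null it ran from 6.78 through 9.64 to 12.10, and in early OPN-null it was 3.91 on O9, 4.30 on O1, 8.35 on O10, 12.22 on O8 and 12.26 on O11. Early TRAMP ran from 5.91 through 6.85 to 12.59, and early SPARC-null TRAMP from 3.61 through 7.74 to 12.22. Every group so far held an animal above the midpoint. Early OPN-null TRAMP ran from 6.15 through 10.15 to 11.17, and late OPN-null TRAMP was 3.28 on OT3, 3.42 on OT2 and 4.52 on OT6. Its rho was 0.74 with Pate9, 0.51 with Svs5 and 0.44 with Svs6.

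**Figure D3:**
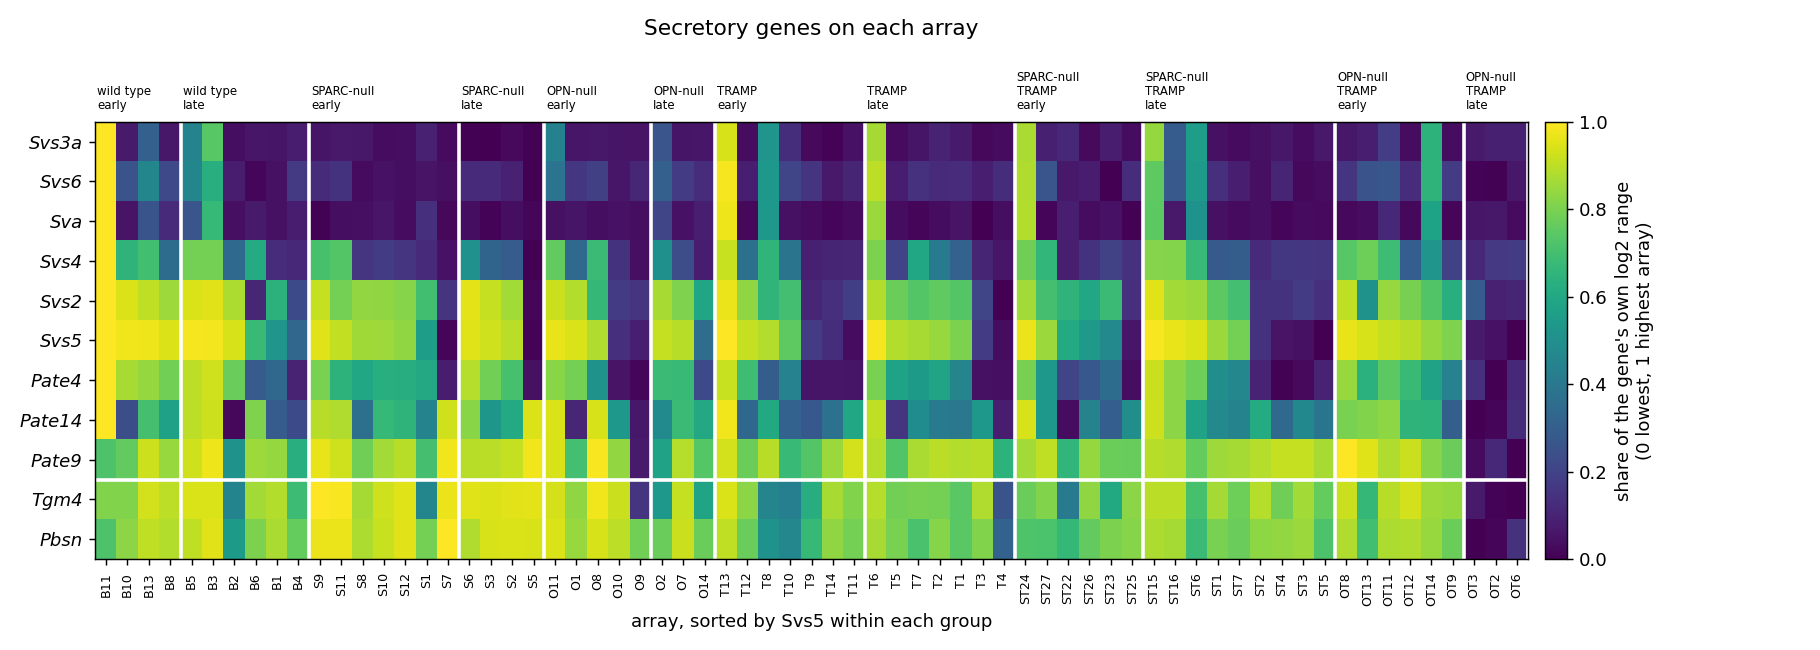
Each column is 1 array, grouped by genotype and age and sorted by Svs5, and each cell shows where the log2 level lies between that gene's own lowest (0) and highest (1) array. The 9 genes are above the line, with Tgm4 and Pbsn below it. S5 and S7 are low in Svs2, Svs5 and Pate4 and high in Pate9 and Pate14. The 3 late OPN-null TRAMP arrays are low in all 3 patterns. Low Svs3a, Svs6 and Sva do not set them apart, as 58 arrays, these 3 included, were not high for each of these genes.

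Set out by array, all 9 genes were high on 8 arrays: B11, B3, T13, T6, ST24, ST15, ST6 and OT14. On 12 arrays the 6 genes other than Svs3a, Svs6 and Sva were high, and on 8 arrays Pate9 alone was. On 4 arrays none was high: OT2, OT3, OT6 and O9. Arrays S7 and S5 show that the patterns separate in single animals. On S7, an early SPARC-null animal, Svs5 was 5.10 and Pate4 5.11 while Pate9 was 11.18 and Pate14 12.10. On S5, a late one, Svs5 was 5.05 and Pate4 4.83 while Pate9 was 11.19 and Pate14 12.28. Of the prostate secretory genes, Pbsn, which encodes probasin, was 12.55 on S7 and 12.06 on S5, and Tgm4 was 13.13 and 13.07, both near the top of their ranges. Others of that list were not near the top of their ranges on both. Defb50 was near the top of its range on S5 at 10.78. On S7 it was 8.75, above its midpoint of 7.82 but under its median of all arrays, 9.57. Wfdc15b was 8.54 on S7 and 5.35 on S5 (median 8.65). On B2, a late wild-type animal, Svs5 was 12.78 and Pate4 10.73, while Pate14 was low at 3.48. Pate9 at 8.29 and Pbsn at 8.91 were above their midpoints of 8.24 and 8.54 on that array.

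Array O9 was low in all 9 genes without a transgene. Its Pate9 was 5.61, Pate14 3.91, Svs5 5.67 and Tgm4 8.20, but Pbsn was 10.83, the lowest value of a group that reached 12.10. On T4, a late TRAMP animal, Svs5 was 5.24, Pate14 4.02, Pbsn 7.04 and Tgm4 8.86, while Pate9 was 9.14. T4 had the lowest Pbsn of all arrays outside late OPN-null TRAMP.

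The other genes of seminal vesicle biology were read from a list of 8, of which 7 were measured. Svs1, Svs3b and Ceacam10, which encode further seminal vesicle proteins, and Spinkl were highest on B11 like the first pattern. The other 3 were not: Spink1 was highest on S5 at 13.13, Pax2 on T13 at 7.89 and Pax8 on S12 at 8.16. Spinkl was high on 21 arrays and Spink1 on 29. Svs1 was high on 8 arrays, all among the same 9 and without ST6, where it was 7.52. The mean level of the 7 genes ran from 6.19 on OT2 to 11.09 on B11, and from 8.21 to 11.09 on the 9 arrays. Of 11 other PATE genes 8 were measured, and their mean ran from 4.50 to 5.19 over all arrays and from 4.63 to 4.95 on the 9 arrays. Genes of epididymis and vas deferens, tissues that also lie close by, were read as well. The mean of the 9 measured of 11 ran from 4.60 to 5.21 over all arrays and from 4.60 to 5.02 on the 9 arrays. The highest level of any of these genes was 6.58 (Lcn8 on O14). On the 9 arrays the mean of 10 smooth muscle genes ran from 8.31 to 9.54, within its range of 7.62 to 9.63 on all arrays other than late OPN-null TRAMP. The part of other tissue in the levels of single arrays was not tested.

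The genes outside the 9 whose pattern was most like each member were taken by Spearman's rho over the 67 arrays, as a description. Other members, left out of this ranking, could be closer still, as they were for Svs2, Svs4, Svs5 and Pate4. For Svs2, Svs5 and Pate4 the closest gene outside the 9 was Cdo1, the cysteine dioxygenase gene (rho 0.90, 0.86 and 0.89), followed by Pate8 (0.85, 0.82 and 0.85). The third was Suco for Svs2 (0.79) and Nr4a3 for Svs5 and Pate4 (0.75 and 0.79). Svs3a, Svs6 and Sva shared Svs3b (0.81, 0.64 and 0.75) and Svs1 (0.64, 0.62 and 0.59), with Spinkl, a protease inhibitor-like gene, for Svs3a (0.63) and Svs6 (0.75) and Gm4759 for Sva (0.51). Among genes outside the 9, Svs4 was closest to Spinkl (0.78), Sgk1 (0.70) and Cdo1 (0.68). Pate9 was closest to Tcaf2 (0.90), Rnase1 (0.90) and Tcaf3 (0.86), and Pate14 to Ace (0.81), Os9 (0.80) and Slc16a7 (0.80).

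The groups were then compared by limma with Benjamini-Hochberg adjustment over all 22206 probe sets, and a gene was called at an adjusted p under 0.05. The 5 comparisons that involve late OPN-null TRAMP share its 3 arrays, so they are not independent of each other. On those arrays each member was above at most 84.7% of the negative control probe sets. Its level there may hold background signal, so a difference from a group above background may be understated. Against late TRAMP, Pate9 was 5.46 ± 0.37 (SD, n = 3) and 10.26 ± 0.61 (n = 7), a log2 difference of -4.80 with an SE of 0.33 and adjusted p = 7.97e-14 by limma. It was the 1 member of 9 that was called, where 21.5% of all probe sets were called and 10.4% called lower. The other 8 members all had lower means in late OPN-null TRAMP without passing the test. Svs5 was at -5.14 (SE 1.91, adjusted p = 0.050 by limma, above the threshold before rounding). Pate14 was at -3.56 (adjusted p = 0.0715 by limma) and Svs2 at -3.19 (adjusted p = 0.117). For Svs3a and Sva the medians went the other way, at 5.69 and 3.53 in late OPN-null TRAMP against 5.46 and 3.26 in late TRAMP. T6 was the 1 late TRAMP array high for these genes, at 11.61 and 10.84. The ranges of the 2 groups were apart for Pate9 and Svs6, as for 9.33% of all probe sets with lower values. For Svs6 they were barely apart, with 4.53 as the highest late OPN-null TRAMP level and 4.65 as the lowest late TRAMP level. The late TRAMP animals T3 and T4 had Svs5 at 6.43 and 5.24. Without T4 the called members were 4 (Svs2, Svs5, Pate9 and Pate14), without T3 they were 2 (Svs5 and Pate9) and without T5 they were 2 (Pate9 and Pate14). They were 3 (Svs5, Pate9 and Pate14) with only the compared groups in the fit, and 2 (Svs5 and Pate9) with dim probe sets left out or a new quantile normalization.

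Against late SPARC-null TRAMP, 2 of 9 members were called lower, where 29.6% of all probe sets were called and 13.7% called lower. Pate9 was 10.52 ± 0.28 (SD, n = 9) in late SPARC-null TRAMP, which gave a difference of -5.06 (SE 0.32, adjusted p = 5.25e-15 by limma). Pate14 was 3.74 ± 0.68 (n = 3) against 8.62 ± 1.88 (n = 9), a difference of -4.88 (SE 1.39, adjusted p = 0.00752 by limma). The ranges were apart for both, as for 10.1% of all probe sets in that direction. With the AUC of each array as a covariate the Pate14 difference was -2.62 and not called (adjusted p = 0.111), and with 1 weight per array it was -4.38 (adjusted p = 0.0560). OT3 was among the 7 arrays with an AUC under 0.7, at 0.683.

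Within OPN-null TRAMP, 5 of 9 members were lower in the late than in the early group, where 22.4% of all probe sets were called and 9.59% called lower. Svs5 was 12.41 ± 0.50 (SD, n = 6) early and 5.30 ± 0.29 (n = 3) late, a difference of -7.11 (SE 1.96, adjusted p = 0.00755 by limma). The late level lay within the negative controls, so the difference may be understated. Pate14 was 9.67 ± 1.89 early and 3.74 ± 0.68 late, a difference of -5.93 (SE 1.47, adjusted p = 0.00311). Pate9 was 10.64 ± 0.52 early and 5.46 ± 0.37 late, a difference of -5.18 (SE 0.34, adjusted p = 2.70e-14). The ranges of the early and late animals were apart for 7 members, all but Svs3a and Sva, where 9.2% of all probe sets were apart in this direction. For Svs4 they were barely apart, with 7.16 as the highest late and 7.26 as the lowest early level. For Svs6 these levels were 4.53 and 5.04. Pate4 (-4.63, SE 1.56, adjusted p = 0.0285) and Svs2 (-4.32, SE 1.50, adjusted p = 0.0340) were called as well, but both calls were lost without any one of OT2, OT3, OT6 or OT8, which left 3 members called. Svs2 was also lost without OT11 or OT12 (adjusted p from 0.0520 to 0.0997 over these 6) and with trend and robust moderation (0.0508). With the AUC as a covariate, with 1 weight per array and without the arrays of AUC under 0.7 the same 3 members, Svs5, Pate9 and Pate14, were called, and Pate14 was -3.90 under the first.

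The OPN difference in TRAMP mice was itself compared between ages. Early OPN-null TRAMP had higher means than early TRAMP for 6 of 9 members, and 0 of 9 were called by limma, where 0.0045% of all probe sets were called and 0 members had an unadjusted p under 0.05. The late minus early change of the OPN difference was called for 3 members, where 15.9% of all probe sets were called and 7.26% called lower. It was -5.20 for Pate9 (SE 0.43, adjusted p = 1.97e-11 by limma), -7.95 for Svs5 (SE 2.46, adjusted p = 0.0232) and -5.24 for Pate14 (SE 1.85, adjusted p = 0.0473). Pate4 (-5.24, adjusted p = 0.0610) and Svs2 (-4.85, adjusted p = 0.0722) missed the threshold. Without OT6 only Pate9 of the 9 was called, with Svs5 at adjusted p = 0.0509, and the same held with the AUC as a covariate, with Svs5 at 0.0598. Without T4, or without T13, 5 members were called (Svs2, Svs5, Pate4, Pate9 and Pate14). The Pate14 call was lost in 22 of 31 alternatives, with -2.88 (adjusted p = 0.237) when the AUC was a covariate.

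Against late OPN-null animals without the transgene, Pate9 was the 1 member called, at -4.21 (SE 0.65, adjusted p = 2.65e-06 by limma) and from 9.67 ± 0.96 (SD, n = 3), where 11.9% of all probe sets were called and 4.65% called lower. In this comparison 6 members had ranges apart and lower in late OPN-null TRAMP (Svs2, Svs5, Svs6, Pate4, Pate9 and Pate14), as had 8.14% of all probe sets. For Svs6 the gap ran only from 4.53 to 5.04. With only these 2 groups in the fit 4 members were called (Svs2, Svs5, Pate9 and Pate14), and with the AUC as a covariate 2 (Pate9 and Pate14). Both OPN-null arrays O14 and O2 of this comparison were under an AUC of 0.7.

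**Figure D4:**
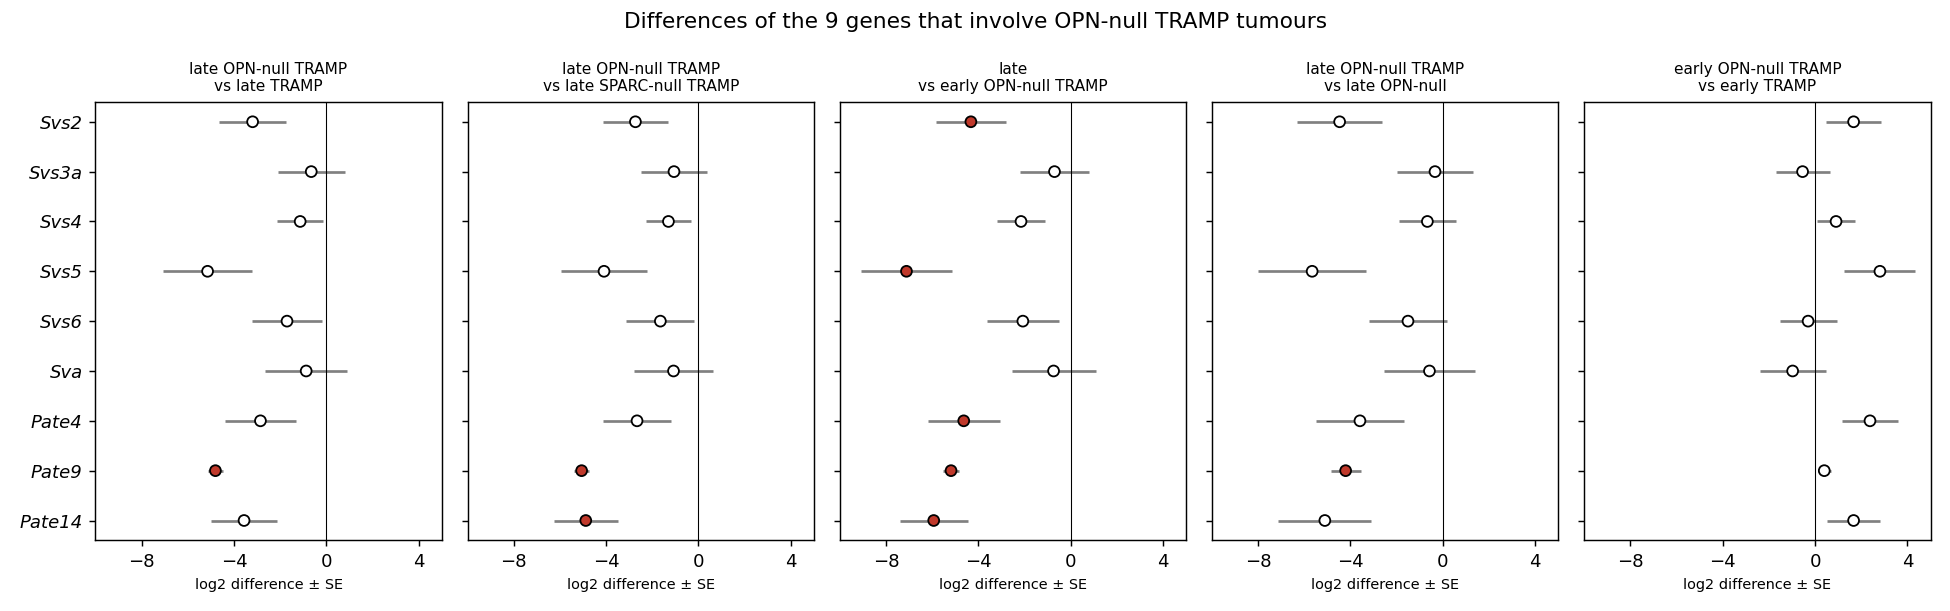
Log2 difference ± SE (x axis) of the 9 genes in 5 comparisons that involve OPN-null TRAMP, first group minus second; filled points passed an adjusted p under 0.05. Pate9 is filled in the 4 panels with late OPN-null TRAMP (-4.21 to -5.18) and no gene is filled in the panel of the early groups.

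In late OPN-null TRAMP the members lay inside the range of negative controls. On its 3 arrays Pate9 was above 46.9% to 59.8% of the negative control probe sets, Svs5 above 43.7% to 53.5%, Pate4 above 35.3% to 54% and Pate14 above 8.1% to 35.3%. Levels of this kind are not separated from the background, and a difference from them may be understated. Over the 67 arrays the median levels of Sva, Svs6 and Svs3a were above 13.2%, 44.4% and 52.1% of the negative controls.

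Other lists moved in the same 3 arrays. Of 13 measured prostate secretory genes 9 were called lower and 0 higher than in late TRAMP, among them Pbsn (-5.39, SE 0.63, adjusted p = 3.13e-08 by limma), Pigr, the receptor that carries IgA across epithelium (-4.75, adjusted p = 1.14e-08) and Defb50, a defensin (-4.43, adjusted p = 2.65e-10). The list's median difference was -2.78, the members' was -2.85, and that of all probe sets was 0.03. Of the other seminal vesicle genes 0 of 7 were called in this comparison (limma), with a median of -0.92, and of the other PATE genes 0 of 8, with a median of 0.11. Smooth muscle genes were lower for 8 of 10, prostate epithelial genes for 4 of 6 and urothelial genes for 4 of 6. Adipose genes were lower for 2 of 7 and skeletal muscle genes for 1 of 8, while 10 of 11 neuroendocrine genes were higher. Of all probe sets 21.5% were called in this comparison, and 10.4% were called lower. The mean of the smooth muscle list was 6.01 to 6.35 on the 3 arrays and that of the neuroendocrine list 7.47 to 7.90, against 7.62 to 9.63 and 5.32 to 6.05 on all other arrays. In epididymis genes 1 of 9 was called, and higher. The part of these lists in the levels of the 9 genes was not tested.

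No member was called in the other comparisons, and the share of probe sets called was small in most. The counts that follow are from limma. Late SPARC-null TRAMP against late TRAMP had 0 of 9 called (0.00901% of all probe sets), and early SPARC-null TRAMP against early TRAMP 0 of 9 (0.018%), with 0 members at an unadjusted p under 0.05 in either. Late against early TRAMP, late against early SPARC-null TRAMP, the change of the SPARC difference with age, and late against early animals without the transgene had 0 of 9 called and 0 at an unadjusted p under 0.05, and 0% of all probe sets called. The medians of the 9 differences were between -0.37 and 0.41 in these 6 comparisons, while single members reached from -1.28 to 1.69. The spread of animals within groups leaves differences of this size unresolved for members other than Pate9.

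Without the transgene, SPARC-null against wild type had 0 of 9 called (0.225% of all probe sets) and 4 at an unadjusted p under 0.05, all lower in SPARC-null. Svs6 was 4.60 ± 0.41 (SD, n = 11) against 6.81 ± 2.63 (n = 10) over both ages together. The fitted difference, which weights the early and the late groups equally, was -2.41 (SE 0.66, adjusted p = 0.153 by limma). Sva differed by -2.24 (adjusted p = 0.246), Svs3a by -2.03 (adjusted p = 0.257) and Svs4 by -1.57 (adjusted p = 0.366). The wild-type group holds B11 and B3, and its ranges overlapped those of SPARC-null. Svs6 was called with 1 weight per array, with the AUC as a covariate and without the arrays of AUC under 0.7 (1 member in each). OPN-null against wild type had 0 of 9 called (0.0045% of all probe sets) and 1 at an unadjusted p under 0.05, Sva at -1.83 (adjusted p = 0.281).

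The transgene itself was compared within each genotype and age. Early TRAMP against early wild type had 0 of 9 called (0.036% of all probe sets) and 2 at an unadjusted p under 0.05, Pate4 at -4.17 (SE 1.50, adjusted p = 0.483 by limma) and Svs2 at -3.11 (SE 1.44, adjusted p = 0.638). All 4 wild-type animals were high for both genes, against 2 and 4 of 7 TRAMP animals. Late TRAMP against late wild type had 0 of 9 called (0.63%) and 0 at an unadjusted p under 0.05. The SPARC-null pairs had 0 of 9 called early (2.51%) and 0 late (1.27%), with 0 at an unadjusted p under 0.05 in both. Of the other seminal vesicle genes 2 were called there, Pax2 at -0.62 early (adjusted p = 0.0312) and Spink1, a trypsin inhibitor, at -3.92 late (adjusted p = 0.0436). Early OPN-null TRAMP against early OPN-null had 0 of 9 called (0.0946%) and 1 at an unadjusted p under 0.05, Pate9 at 1.12 (adjusted p = 0.831), where the OPN-null group holds O9.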

How the data were processed

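RNA of 68 mouse samples was labelled with biotin and hybridised to Clariom S arrays. The deposited table gives log2 levels, 1 for each probe set on each array, which the authors made with RMA in the oligo package per the submitters' processing notes (versions: not given in the sources used here). RMA compresses differences at low signal. Of 29129 probe sets, 6923 were controls; of the 22206 tested, 19572 have 1 symbol and 2634 none. Array O12, labelled SPARC-null by genotype but coded as an OPN animal, entered no group.

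Each gene was read from its brightest probe set by mean over the arrays. Groups were compared with limma 3.58.1 (lmFit, eBayes, 2-sided; R 4.3.3) on 38 transgenic arrays, 29 arrays without the transgene, or all 67 with a weight per transgene status (1.11 and 0.87), with Benjamini-Hochberg adjustment. The scripts were tested on simulated data. The members and gene lists were chosen with earlier results of these data known. By rule the text names the members, the 3 genes outside them most like each by Spearman's rho, the 3 largest called differences of the seminal vesicle, PATE and prostate secretory lists, and Pbsn, Tgm4, Defb50 and Wfdc15b beside single arrays. Lcn8, the other seminal vesicle genes named by array, and the separate patterns of members, were chosen after their values were seen. Alternatives changed the moderation, weights, groups in the fit, dim-probe filter, scaling, quality and age covariates, and left out each array. Promoters are RefSeq's, on GRCm38.p6. The number of arrays limits the precision.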

Additional observations from a re-analysis of the deposited data

Results flagged for a closer look

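Of 90 sets of 1 gene in 1 group of 4 to 10 arrays, 20 held an array far from the others by Dixon's ratio. Chance gives about 1 in 20 if values are normally distributed. As the genes were chosen with earlier results of these data known, the count is a description and no test against that rate. The sets are not independent, since correlated genes were read on the same arrays and some arrays were counted for several genes. In late TRAMP, T6 was the distant high array for Svs3a (11.61), Svs6 (11.67) and Sva (10.84). In early SPARC-null TRAMP, ST24 was so for Svs3a (11.67), Svs6 (11.48) and Sva (11.17), and in early OPN-null TRAMP OT14 was so for Svs3a (9.94), Svs6 (9.52) and Sva (8.35). In late wild type B3 stood apart for Sva (9.17), and in early OPN-null O11 stood apart for Svs3a (8.37), where the other 4 arrays ran from 5.42 to 5.53. S1 was the highest early SPARC-null array for Sva at 4.22, close to the others' highest of 3.52.

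Low arrays that stood apart were S7 in early SPARC-null for Svs2 (6.62), Svs5 (5.10) and Pate4 (5.11), S5 in late SPARC-null for Svs2 (5.59) and Svs5 (5.05), and ST25 in early SPARC-null TRAMP for Svs2 (6.48). ST6 was the lowest late SPARC-null TRAMP array for Pate9 at 9.85, and OT9 the lowest early OPN-null TRAMP array for Pate14 at 6.15. The AUC of these arrays ran from 0.723 to 0.797, apart from S1 at 0.682.

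The OPN difference in TRAMP mice changed from early to late animals by -7.95 for Svs5, -5.20 for Pate9 and -5.24 for Pate14, tested as an interaction in limma. Svs5 and Pate14 lost this call under some alternatives.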

How the results depend on the processing

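The members called in late OPN-null TRAMP against late TRAMP were 1, and became 2 with dim probe sets left out, 2 after quantile normalization without controls, 3 with only the compared groups in the fit, and 1 to 4 when 1 array at a time was left out. Against late SPARC-null TRAMP they were 2, and 1 with 1 weight per array and 1 with array quality (AUC) as a covariate. For late against early OPN-null TRAMP they were 5, and 3 with 1 weight per array, 3 with the AUC covariate, 3 without arrays of AUC under 0.7 (chosen after seeing the data), and 3 to 5 with 1 array left out. For the change of the OPN difference with age they were 3, and 1 with the AUC covariate and 1 to 5 with 1 array left out. For SPARC-null against wild type they were 0, and 1 with array weights, 1 with the AUC covariate and 1 without arrays of AUC under 0.7. For late OPN-null TRAMP against late OPN-null they were 1, and 2 with the AUC covariate and 4 with only the compared groups. Fewer arrays or groups enter some of these fits; otherwise the cause was not tested. No called difference changed sign, and Pate9 was called under every alternative run in its 5 comparisons. The mean of all probe sets of a gene gave no other value, since each member has 1. No paired analysis was possible because the labels give each animal its own code. Members within the range of negative controls are limited by signal over background.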

Other observations

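Array O12, whose labels disagree and which was kept out of every group, had Svs2 at 10.91, Svs5 at 11.60, Pate4 at 8.77, Pate9 at 10.50 and Pate14 at 9.61, with Svs3a at 5.45, Svs6 at 4.58, Sva at 3.16 and Svs4 at 7.11. Its Sparc level was 7.24, above every SPARC-null array in either age without the transgene, where the highest was 6.59.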
